A study of Mus musculus with 6 samples.

Results

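The core and naive pluripotency factors are 10 transcription factor genes, chosen by name: Pou5f1, Nanog, Sox2, Klf2, Klf4, Klf5, Esrrb, Tfcp2l1, Zfp42 and Nr0b1. All 10 were found among the 52636 gene identifiers of the count files, and all 10 had enough reads to be among the 15816 genes tested. RNA had been sequenced from the mouse embryonic stem cell line E14, in 3 wild-type libraries and 3 libraries of cells with an enhancer cluster-KO. Per the series title, that cluster promotes the forming of neural progenitors by keeping HoxB genes active. Before differentiation both groups were grown with serum, LIF, the MEK inhibitor PD0325901 at 1 µM and the GSK3 inhibitor CHIR99021 at 3 µM. LIF and the inhibitors were then withdrawn, and both groups received retinoic acid at 5 µM (µm in the labels) for 4 days. How many knockout clones were used and where the deletion lies are not given in the sources used here, and undifferentiated cells were not analysed here.

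In pluripotent cells OCT4 (the product of Pou5f1), SOX2 and NANOG occupy enhancers together and sustain each other's transcription. A second set of factors, among them KLF2, KLF4, KLF5, ESRRB and TFCP2L1, holds mouse cells in the naive state. LIF acts on this set through STAT3, and the MEK and GSK3 inhibitors act on it by blocking ERK and by stabilising beta-catenin. Retinoic acid with withdrawal of these supports is known to silence the network, while SOX2 persists in neural progenitors and KLF4 and KLF5 are also made by epithelia.

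The 10 factors did not move as a block after 4 days of retinoic acid. In the knockout 6 of 10 fell (Nanog, Sox2, Zfp42, Nr0b1, Esrrb and Klf2) and 4 rose (Tfcp2l1, Klf5, Klf4 and Pou5f1), by edgeR's quasi-likelihood test at an adjusted p under 0.05. Calls of either direction were common in this comparison: 34.0% of all genes tested were lower and 34.5% higher, 68.6% in all. All 6 falls were of at least 1 on the log2 scale, a size reached by 9.47% of all genes as called falls. No rise reached that size, which 11.5% of all genes reached as called rises. The members' median log2 fold change was -1.22, against 0.0091 for all genes tested. The median absolute change was 1.22 against 0.49. The members and the gene lists below were chosen with earlier results of these data known. Their shares and medians beside those of all genes are therefore descriptions only. Among the members 9 of 10 had no overlap between the groups, as did 70.9% of all genes. In a bulk sample fewer cells expressing a gene and less of its RNA per cell cannot be told apart.

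**Figure D1:**
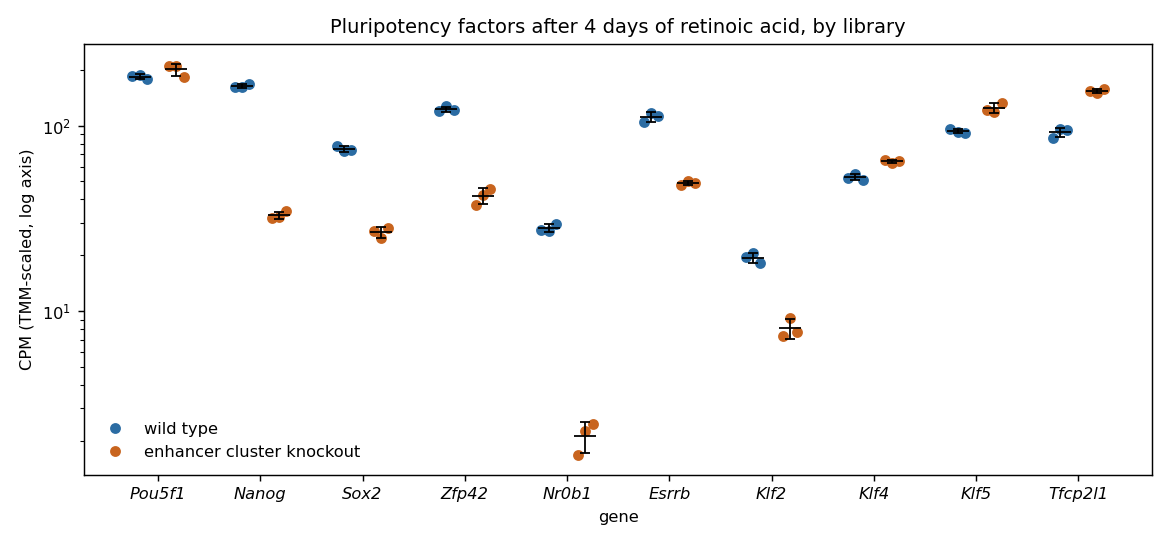
Expression of the 10 factors in each library, in CPM (counts scaled to library size with TMM, log axis). Points are libraries of wild type (blue) and knockout (orange), and black bars give mean and SD of 3 libraries. The groups overlap only for Pou5f1, and Nr0b1 drops furthest, to 1.67 to 2.46 CPM in the knockout.

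Depth was similar in the 6 libraries, at 7780368 to 9472916 counts on genes. The share of counts on mitochondrially encoded genes was 1.67 to 1.73% among wild-type libraries and 2.58 to 2.89% among knockout libraries. Genes over ribosomal RNA repeats held 1.04% in knockout replicate 1 and 0.0726 to 0.118% elsewhere. Of the 10 calls, 9 were kept without either set of genes, and without knockout replicate 1. Pou5f1 was called without the gene sets but not without that library.

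The core trio split. Pou5f1 (ENSMUSG00000024406, GRCm38 chromosome 17, 35506018 to 35510772, plus strand) encodes OCT4, the POU-domain factor without which a pluripotent inner cell mass does not form. It stood at 185, 188 and 178 CPM in wild-type replicates 1 to 3, and at 209, 210 and 183 CPM in knockout replicates 1 to 3. Knockout replicate 3 lay inside the wild-type range, and the other two lay above it. The log2 fold change was 0.12 (SE 0.049, n = 3 per group, edgeR adjusted p = 0.0294), a 1.09-fold difference, and 43.3% of all tested genes had a fold change as high or higher. This call was fragile. The adjusted p was 0.0664 with DESeq2, and with edgeR it was 0.0638 without wild-type replicate 1, 0.152 without wild-type replicate 3, 0.1 without knockout replicate 1 and 0.138 without knockout replicate 2.

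Exons of Gm19553, an annotated gene on the minus strand (chromosome 17, 35509077 to 35510551), overlap 14.1% of the exon length of Pou5f1. Whether the counts separate strands is not given, so reads of the pair may not be told apart. Gm19553 had 909 to 1143 counts per library in both groups together, and its log2 fold change of 0.03 (SE 0.055) did not pass the test. With its counts added to those of Pou5f1, which was tried only after the data had been seen, the locus was at 0.09 and did not pass (edgeR adjusted p = 0.1).

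Nanog (ENSMUSG00000012396, chromosome 6, 122707489 to 122714633, plus strand), the homeodomain factor that stabilises the naive state, was far lower. Its values were 161, 162 and 168 CPM in wild type and 31.8, 32.1 and 34.6 CPM in the knockout. Every knockout library lay below every wild-type library, and the spread within each group was small beside the gap. Nanog fell by 2.32 on the log2 scale (SE 0.054, edgeR adjusted p = 1.38e-22), a 4.98-fold difference, and 1.42% of tested genes had a fold change as low or lower. Its annotated processed pseudogenes Nanog-ps1 and Nanog-ps2 had 0 counts in all 6 libraries. Reads that did not align uniquely, 13.8 to 15.0% per library, were tallied apart from genes. Counts of 0 therefore cannot show whether reads were shared with such copies.

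Sox2 (ENSMUSG00000074637, chromosome 3, 34650405 to 34652461, plus strand), the HMG-box partner of OCT4, stood at 77.9, 73.2 and 73.6 CPM in the wild-type libraries, and the knockout libraries gave 26.9, 24.8 and 28.2 CPM. The groups were apart in all libraries. It fell by 1.49 on the log2 scale (SE 0.076, edgeR adjusted p = 3.12e-15), 2.81-fold. Sox2 is a single-exon gene inside the long noncoding gene Sox2ot, whose exons do not overlap it. Sox2ot had 9 counts in each wild-type library, and knockout replicates 1 to 3 had 3, 3 and 0, too few to be tested.

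The sequences before the start sites of these 3 genes and of Zfp42 are shown because OCT4 and SOX2 are known to bind such sequences, and Pou5f1, which moved least, is set beside the 3 falling factors whose windows hold a POU sequence. They were picked with their fold changes and matches known. They are RefSeq windows of GRCm38.p6, up to 250 bases, 5′ to 3′ on the gene's strand, ending before the annotated start. The positions are chr6:122707239-122707488 (plus) for Nanog, chr8:43307010-43307259 (minus) for Zfp42, chr3:34649745-34649994 (plus) for Sox2 and chr17:35505782-35506017 (plus) for Pou5f1. The Sox2 window follows the RefSeq start, which lies upstream of the GENCODE start given above. Capitals mark matches on either strand to the joined SOX and POU site, to ATGCAAA (the POU octamer without its last base, contained in the joined site), to AGGTCA (a nuclear receptor site) or to GGGNGTGG (a KLF box).
Nanog: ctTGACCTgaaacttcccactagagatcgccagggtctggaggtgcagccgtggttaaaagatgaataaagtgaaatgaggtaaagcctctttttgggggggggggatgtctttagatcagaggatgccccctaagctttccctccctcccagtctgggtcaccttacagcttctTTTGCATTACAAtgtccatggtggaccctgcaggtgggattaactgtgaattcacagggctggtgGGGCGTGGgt
Zfp42: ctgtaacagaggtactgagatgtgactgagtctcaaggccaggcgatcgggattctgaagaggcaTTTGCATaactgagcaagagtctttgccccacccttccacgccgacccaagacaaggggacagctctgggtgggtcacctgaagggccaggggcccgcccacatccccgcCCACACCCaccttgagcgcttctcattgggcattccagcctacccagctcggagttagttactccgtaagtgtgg
Sox2: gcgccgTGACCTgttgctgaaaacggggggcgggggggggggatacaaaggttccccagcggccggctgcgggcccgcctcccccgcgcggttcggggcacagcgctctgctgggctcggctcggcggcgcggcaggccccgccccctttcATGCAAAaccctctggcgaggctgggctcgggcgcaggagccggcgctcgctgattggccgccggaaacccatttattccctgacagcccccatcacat
Pou5f1: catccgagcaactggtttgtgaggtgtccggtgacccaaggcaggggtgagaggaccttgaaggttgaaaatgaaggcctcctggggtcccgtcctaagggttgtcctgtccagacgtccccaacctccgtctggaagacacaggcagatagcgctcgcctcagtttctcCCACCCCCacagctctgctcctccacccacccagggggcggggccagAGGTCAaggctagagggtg

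The Nanog window held the joined site, read on the plus strand as TTTGCATTACAA, ending 63 bases before the start. Of all 32851 windows in the table, 11 held the joined site within the 250 bases before the start (0.0335%). ATGCAAA was in the windows of 3 of the 6 factors that fell (Nanog, Zfp42 and Sox2), in none of those of the other 3 (Nr0b1, Esrrb and Klf2), and in 4.12% of all windows. The Pou5f1 window shown held neither. It had 1 AGGTCA, ending 13 bases before the window's end, and 1 GGGNGTGG. AGGTCA was in 14.0% of all windows and GGGNGTGG in 15.9%. Windows were in the table for 9 of the 10 factors, 12 windows in all. The Nr0b1 window held 1 AGGTCA and the Tfcp2l1 window 2 GGGNGTGG. The windows of Klf2, Klf4 and Esrrb held none of the 4 sequences. A match describes letters in the window and not a bound site.

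Zfp42 and Nr0b1, often read as output of the core trio, fell. Zfp42 (ENSMUSG00000051176, chromosome 8, 43295063 to 43306980, minus strand) encodes REX1, a zinc finger protein used as a marker of naive stem cells. It stood at 120, 127 and 121 CPM in the wild-type libraries. Knockout replicates 1 to 3 gave 37.4, 42.2 and 45.7 CPM, with no overlap. Zfp42 fell by 1.55 on the log2 scale (SE 0.063, edgeR adjusted p = 2.18e-17), 2.94-fold.

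Nr0b1 (ENSMUSG00000025056, chromosome X, 86191764 to 86195947, plus strand) encodes DAX1, an orphan nuclear receptor that acts as a co-regulator in stem cells. Wild-type replicates 1 to 3 had 231, 254 and 241 counts and knockout replicates 13, 18 and 21, or 27.3, 27.0 and 29.6 CPM against 1.67, 2.25 and 2.46 CPM. No knockout library came near a wild-type one. Its log2 fold change of -3.70 (SE 0.17, edgeR adjusted p = 3.46e-16) was a 13.0-fold fall, the largest among the 10 factors. As low a fold change or lower was found for 0.354% of tested genes.

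Esrrb and Klf2 fell less. Esrrb (ENSMUSG00000021255, chromosome 12, 86361117 to 86521628, plus strand), an orphan nuclear receptor known to be released from repression when GSK3 is inhibited, was at 104, 117 and 113 CPM in wild type. In the knockout it was at 47.8, 50.4 and 49.3 CPM, below every wild-type library. Its log2 fold change was -1.18 (SE 0.059, edgeR adjusted p = 2.18e-15), 2.27-fold.

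Klf2 (ENSMUSG00000055148, chromosome 8, 72319033 to 72321656, plus strand), a Kruppel-like factor whose protein is known to be lost on ERK activity, was the lowest of the 10 in wild-type CPM. Its values were 19.5, 20.6 and 18.2 CPM in the wild-type libraries, set against 7.34, 9.23 and 7.73 CPM in those of the knockout. The groups did not overlap, and Klf2 fell by 1.26 on the log2 scale (SE 0.14, edgeR adjusted p = 1.8e-08), 2.4-fold.

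The other two Kruppel-like factors went the other way. Klf4 (ENSMUSG00000003032, chromosome 4, 55527143 to 55532466, minus strand), a known target of LIF and STAT3, gave 52.3, 54.9 and 50.8 CPM in the wild-type libraries, while knockout replicates gave 65.1, 63.1 and 64.4 CPM. The groups were apart, yet the rise was small, at 0.28 on the log2 scale (SE 0.066, edgeR adjusted p = 0.000457), 1.22-fold.

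Klf5 (ENSMUSG00000005148, chromosome 14, 99298691 to 99315036, plus strand), which is needed in early embryos and in gut epithelium, was at 95.7, 92.0 and 91.4 CPM in wild type. In the knockout it was at 122, 119 and 133 CPM, above every wild-type library. It rose by 0.42 on the log2 scale (SE 0.05, edgeR adjusted p = 3.28e-08), 1.34-fold.

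Tfcp2l1 (ENSMUSG00000026380, chromosome 1, 118627945 to 118685168, plus strand), a CP2-family factor and another known target of STAT3, had the largest rise of the 10. Wild-type replicates 1 to 3 gave 85.7, 95.8 and 94.4 CPM, and knockout replicates 153, 150 and 157 CPM. The groups were well apart. Tfcp2l1 rose by 0.74 on the log2 scale (SE 0.05, edgeR adjusted p = 8.98e-13), 1.66-fold, and 17.8% of tested genes had a fold change as high or higher. Exons of Gm23497 cover 1.38% of its exon length, and that gene had 0 counts.

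**Figure D2:**
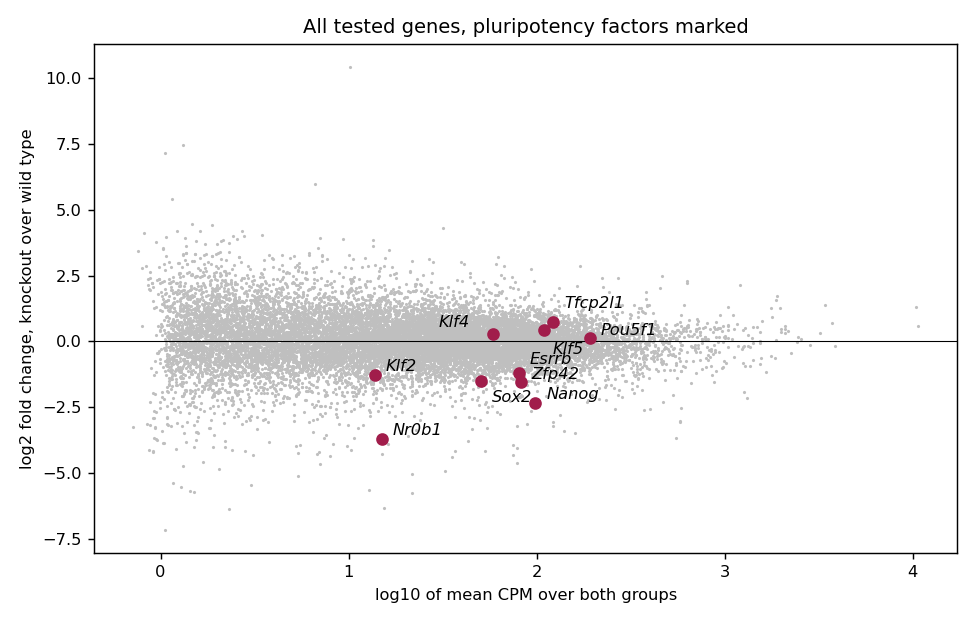
Log2 fold change (knockout over wild type) against the log10 of mean CPM for the 15816 tested genes (grey), with the 10 factors marked and named. Nr0b1 at -3.70 and Nanog at -2.32 lie below most genes of similar level, whereas Pou5f1, Klf4, Klf5 and Tfcp2l1 lie within the band of the other genes.

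Levels of different genes were compared as CPM per kilobase of exon, since longer transcripts collect more reads. In wild type Pou5f1 was highest, at 81.8 ± 2.38 CPM per kilobase (SD, n = 3), followed by Nanog at 73.0 ± 1.73, Zfp42 at 65.3 ± 2.02 and Sox2 at 36.4 ± 1.28. Esrrb at 18.4 ± 1.12, Klf5 at 17.9 ± 0.443 and Klf4 at 17.3 ± 0.678 came next. Neighbours among these last 3 had overlapping ranges. Nr0b1 at 15.5 ± 0.773, Klf2 at 10.5 ± 0.67 and Tfcp2l1 at 9.75 ± 0.578 closed the order, the last pair overlapping.

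In the knockout Pou5f1 was again highest, at 89.2 ± 6.62 CPM per kilobase, but with a wide gap to all others. Klf5 at 24.0 ± 1.34, Zfp42 at 22.2 ± 2.22 and Klf4 at 21.1 ± 0.32 followed, each overlapping its neighbour among the 3. Tfcp2l1 moved from the bottom of the order to 16.2 ± 0.352, above Nanog at 14.6 ± 0.673 and Sox2 at 13.0 ± 0.833. Esrrb at 8.13 ± 0.217, Klf2 at 4.39 ± 0.541 and Nr0b1 at 1.18 ± 0.224 came last. Per kilobase, Nanog had been at or above 96.0% of tested genes in wild type and was at or above 74.7% in the knockout, while Pou5f1 was at 96.4% and 97.0%.

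**Figure D3:**
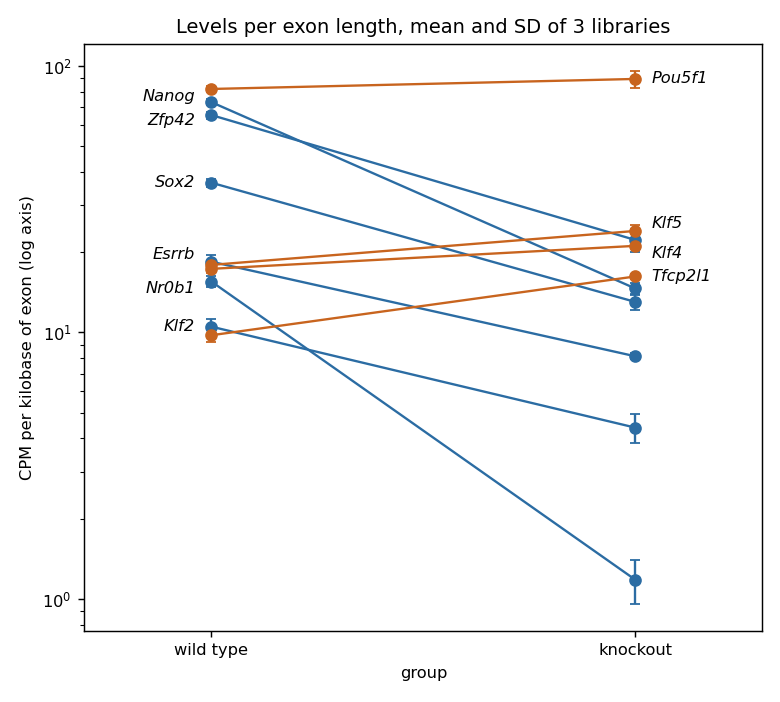
Level of each factor per exon length in wild type and knockout (CPM per kilobase, log axis), as mean and SD of 3 libraries. Orange lines join factors with a higher mean in the knockout and blue lines those with a lower mean. By this length Pou5f1 stays at the top while Zfp42 drops to the level of Klf5 and Klf4, and Nanog and Sox2 drop below Klf5, Klf4 and Tfcp2l1. By the longest transcript Klf5 is above Zfp42 in the knockout (37.2 against 22.7).

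The balance between the factors shifted with these changes. The level of Nanog per kilobase was 0.872, 0.861 and 0.947 of that of Pou5f1 in the wild-type libraries, and 0.153, 0.153 and 0.189 of it in the knockout ones. For Sox2 the ratio was 0.459, 0.424 and 0.452 in wild-type replicates 1 to 3, compared with 0.141, 0.129 and 0.168 in knockout replicates 1 to 3. For Tfcp2l1 it went the other way, from 0.11, 0.121 and 0.126 to 0.174, 0.17 and 0.204. By CPM, 70.9% of all genes tested had no overlap between the groups. None of the 3 ratios overlapped either, nor did the ratios of Klf4, Klf5 and Esrrb to Pou5f1. These ratios share the values of Pou5f1 and are given as a description, with no test. They also depend on the lengths used. By the longest transcript, wild type had 74.1 CPM per kilobase for Nanog beside 135 for Pou5f1. The knockout then had 14.8 for Nanog beside 147 for Pou5f1.

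KLF2, KLF4 and KLF5 bind the same DNA sequence and can stand in for each other in stem cells. Their summed level per exon length was 45.7 ± 1.4 CPM per kilobase in wild type and 49.4 ± 1.2 in the knockout. Klf2 made up 22.9, 23.8 and 22.3% of the sum in wild type, compared with 8.14, 10.3 and 8.23% in the knockout. Klf4 went from 37.2, 38.4 and 37.8% to 43.7, 42.6 and 41.6%, and Klf5 from 39.9, 37.7 and 39.9% to 48.1, 47.2 and 50.2%. Every knockout library had a higher sum (48.7 to 50.8 against 44.1 to 46.9 CPM per kilobase) and a lower share of Klf2. By the length of the longest transcript the sum was 55.7 ± 1.6 and 62.8 ± 1.9 CPM per kilobase. These too are descriptions, with no test.

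**Figure D4:**
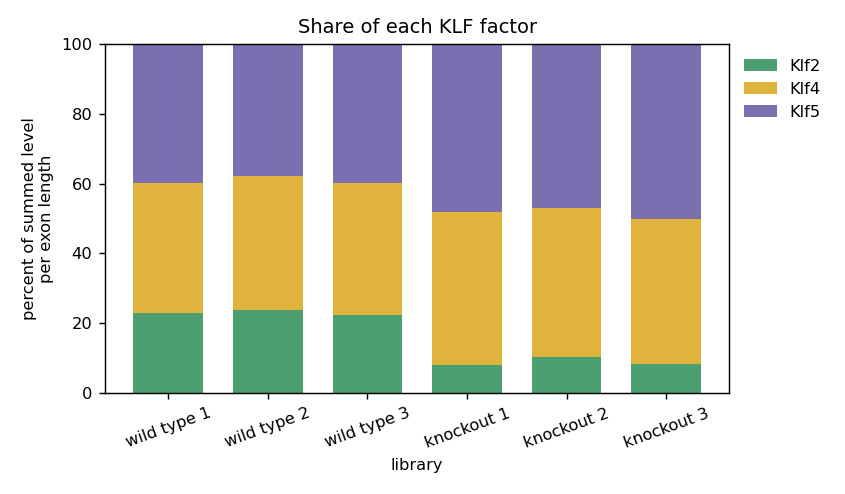
Share of Klf2, Klf4 and Klf5 in their summed level per exon length, in percent, for each of the 6 libraries. The Klf2 part is 22.3 to 23.8% in wild type and 8.14 to 10.3% in the knockout.

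The genes whose pattern over the 6 libraries was most like that of a core factor were taken by Euclidean distance between centred log2 CPM, among 9823 genes with a mean CPM of at least 10. For Pou5f1 these were Rpl8 (distance 0.0486), Rps2 (0.0548) and Elmsan1 (0.0593). Rpl8 and Rps2 encode ribosomal proteins and, like Pou5f1, were lowest in replicate 3 of each group. For Nanog they were Plk2 (0.0391), a kinase gene, Tuba1a (0.0911), a tubulin, and Cnn2 (0.129), a calponin. For Sox2 they were Phlda3 (0.101), Tfrc (0.102), the transferrin receptor, and Cited2 (0.114). For Esrrb they were Steap1 (0.0699), Bmp1 (0.0971) and Edem3 (0.103). With 6 libraries in 2 groups the distance mostly reflects the size of the group difference.

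Other regulators of the network were followed with a list of 24, all tested. The test called 4 of them higher and 13 lower and left 7 uncalled, with a median log2 fold change of -0.29 against 0.0091 for all genes. The share called, 70.8%, was near the 68.6% of all genes tested. For the other lists of regulators, targets and relatives below, it was 66.7% (POU and SOXB genes) to 100% (genes induced by beta-catenin). Those named for the smallest adjusted p fell. Their log2 fold changes were -0.70 (SE 0.034) for Trim28, a corepressor that silences retroelements, -1.50 (SE 0.082) for Dppa2, a chromatin factor, and -0.83 (SE 0.047) for Zfp281, a zinc finger factor. Prdm14 and Nr5a2, both known to support naive cells, also fell, with -1.61 (SE 0.32) and -1.49 (SE 0.19). The 4 called higher were Zfp143, Tet2, Tfe3 and Prdm15. They rose by 1.17 (SE 0.099), 0.77 (SE 0.053), 0.45 (SE 0.061) and 0.22 (SE 0.094), in that order. Tbx3, a T-box factor downstream of LIF, was at -0.02 (SE 0.038), and Sall4, a partner of OCT4, was at -0.04 (SE 0.043). Neither passed the test. Tcf7l1, the repressor through which GSK3 inhibition acts on Esrrb, fell, at -0.23 (SE 0.055).

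Genes known to lie downstream of the core factors moved both ways. Of 22 listed, 21 were tested, 8 rose and 11 fell, with a median of -0.33. Jam2, a junction molecule, fell (log2 fold change -2.28, SE 0.08), from 119 ± 2.3 to 24.5 ± 4.48 CPM. Dnmt3l, a cofactor of DNA methylation, rose by 1.21 (SE 0.043), Fbxo15 by 2.45 (SE 0.1) and Slc2a3, a glucose transporter, by 0.30 (SE 0.016). Fgf4 and Utf1, textbook targets of OCT4 with SOX2, fell, at -1.31 (SE 0.17) and -0.83 (SE 0.091). Dppa5a, an abundant stem cell transcript, was at 351 ± 12.5 CPM in wild type and 354 ± 16.2 CPM in the knockout and did not pass. Dppa3 had too few counts to be tested.

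In the pathway from LIF to STAT3, 5 of 10 tested genes rose and 4 fell, with a median of 0.13. Stat3, the factor that carries the signal, rose by 0.95 (SE 0.058), from 71.9 ± 6.42 to 139 ± 8.26 CPM, and Pim3, a kinase gene induced by it, rose by 0.92 (SE 0.054). The receptor gene Lifr rose by 0.31 (SE 0.055) and Socs3, the feedback inhibitor, by 0.39 (SE 0.14). Lif itself fell, at -1.95 (SE 0.13), as did Ptpn11, encoding the phosphatase SHP2, at -0.68 (SE 0.049). The other 2 falls were of genes that STAT3 is also known to induce, Junb at -1.35 (SE 0.11) and Pim1 at -0.48 (SE 0.062), so its known targets moved both ways. Exons on the other strand overlap 14.5% of the exon length of Pim1.

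Readouts of the pathways that the inhibitors act on were mostly lower. Of 10 genes induced by ERK, 9 fell and the median was -1.49. The gene not called was Egr1, at -0.12 (SE 0.11), and the smallest called fall was that of Fos, at -0.31 (SE 0.1). In edgeR 0 rose, at an unadjusted p under 0.05 too, as all 10 fold changes were negative, and 0 rose with DESeq2. The falls with the smallest adjusted p were those of Dusp6, a phosphatase that turns ERK off, at -3.19 (SE 0.058), Etv5, an ETS factor, at -1.49 (SE 0.052), Dusp4, another phosphatase, at -1.68 (SE 0.067) and Spred1, an inhibitor of the pathway, at -1.50 (SE 0.061). Of 10 listed genes induced by beta-catenin, 9 were tested, 8 fell and 1 rose, with a median of -2.40. Among the falls were Ccnd1, encoding cyclin D1, at -3.78 (SE 0.11), Cdx1, a homeobox factor, at -2.45 (SE 0.16) and Lef1, a partner of beta-catenin, at -2.40 (SE 0.16). Sp5 also fell, from 79, 111 and 83 counts in the wild-type libraries to 1, 3 and 3 counts (edgeR adjusted p = 8.23e-13). Rnf43, encoding a ligase that removes Wnt receptors, rose by 1.15 (SE 0.19). Exons on the other strand overlap 23.4% of the exon length of Ccnd1 and 13.7% of that of Lef1.

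Genes of the formative and primed epiblast, the states that follow the naive one, numbered 11, of which 9 fell and 1 rose, and their median was -1.14. The falls included Cdh2, encoding N-cadherin, at -1.52 (SE 0.057), Lef1, also in the list before, at -2.40, Dnmt3b, a DNA methyltransferase, at -0.56 (SE 0.046) and Nodal, a signal of the TGF-beta family, at -1.60 (SE 0.14). The 1 rise was Dnmt3a at 0.14 (SE 0.053). It was not called with DESeq2, nor with edgeR when knockout replicate 1 or wild-type replicate 2 or 3 was left out, each of which gave 0 rises.

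**Figure D5:**
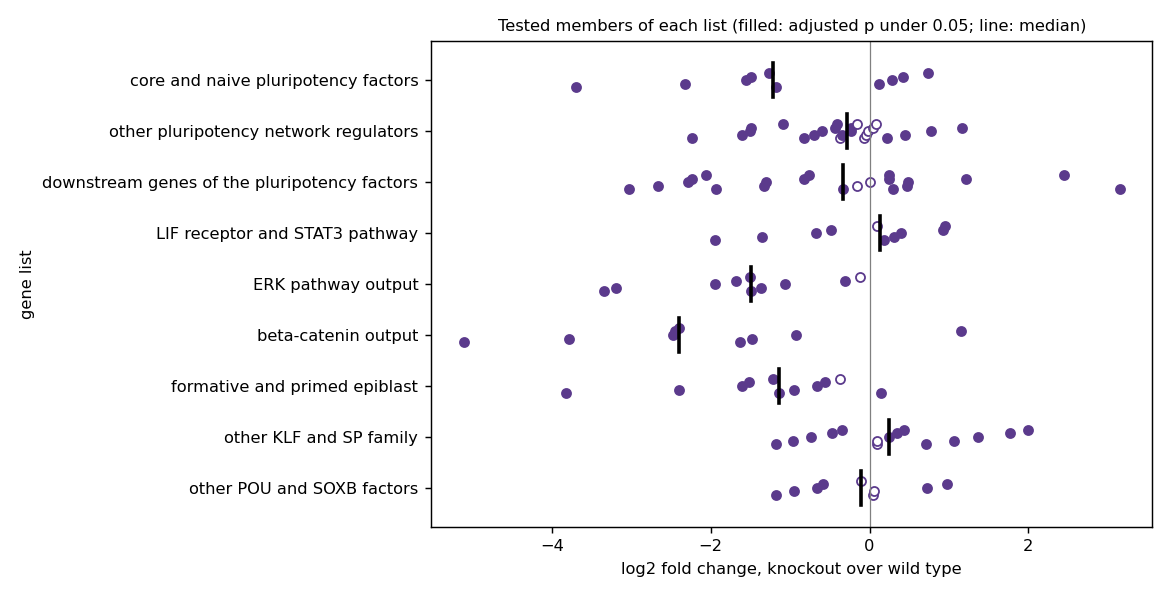
Log2 fold changes (knockout over wild type) of the tested members of 9 gene lists. Filled points passed the edgeR test at an adjusted p under 0.05, open points did not, and black lines are medians. The core and naive factors have a median of -1.22, and those induced by beta-catenin the lowest, at -2.40.

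Relatives of the members by family moved both ways. Of 18 other KLF and SP genes 15 were tested, 8 rose and 5 fell, with a median of 0.24. That list leaves out Sp5 and Sp8, which stand among the genes induced by beta-catenin and both fell, Sp8 at -1.63 (SE 0.19). With them, added after the data had been seen, 8 of 17 rose and 7 fell, with a median of 0.09. Klf11 rose by 1.77 (SE 0.067) and Klf10 by 1.06 (SE 0.06), both known to respond to TGF-beta, while Klf3 and Klf13 fell, at -0.97 (SE 0.052) and -1.18 (SE 0.074). Of 12 other POU and SOXB genes 9 were tested, 2 rose and 4 fell. Pou2f1, the widely expressed OCT1, rose by 0.98 (SE 0.051), with exons on the other strand over 18.1% of its exon length, and Pou6f1 by 0.72 (SE 0.2). Pou4f1 fell, at -1.18 (SE 0.25), as did Sox3, a close relative of Sox2, at -0.95 (SE 0.21). Without wild-type replicate 2 only 2 fell. The median was -0.11, but -0.39 without knockout replicate 1 or 3 and -0.31 without wild-type replicate 1.

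Several factors are also made outside pluripotent cells, so markers of other types are given beside them. Of 10 stem cell markers, which share 5 genes with the 10 factors, 9 were tested, 1 rose and 7 fell, and their sum was 1067 to 1101 CPM in wild type and 717 to 761 CPM in the knockout. The 1 rise was that of Pou5f1. Most of the lower sum came from Nanog, Zfp42, Esrrb and Sox2, all among the 10 factors. Of 12 neural progenitor markers 7 were tested, 2 rose and 3 fell, and their sum went from 380 to 401 CPM down to 103 to 106 CPM. Nes, encoding nestin, at 231 ± 6.84 and 33.6 ± 3.49 CPM, and Cdh2, at 143 ± 10.0 and 49.6 ± 1.68 CPM, made up most of that sum in wild type and its fall. The third fall was that of Sox3. The rises were those of Pax6, from 2.12 ± 0.209 to 4.76 ± 0.582 CPM, and Dll1, from 4.62 ± 0.718 to 8.06 ± 1.64 CPM. Exons on the other strand overlap 20.5% of the exon length of Dll1. Fabp7 had 0 counts in all libraries, Hes5 at most 0.129 CPM, and Sox1, another defining gene, 1.42 to 2.45 CPM in wild type and 1.25 to 2.46 CPM in the knockout. The series' design text calls these cells NPC, while the sample labels call them embryonic stem cells.

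Of 12 endoderm markers, all tested, 9 rose and 1 fell, and their sum was 893 to 920 CPM in wild type and 2250 to 2330 CPM in the knockout, with none at 0. Most of the higher sum came from Cubn and Dab2. Cubn was at 217 to 228 CPM in wild type and 1024.3 to 1051.4 CPM in the knockout, and Dab2 at 242 to 247 and 494 to 538 CPM. The fall was that of Sox17, at -0.65 (SE 0.12), with exons on the other strand over 16.8% of its exon length, while Foxa2 and Ttr did not pass. Of 10 trophoblast markers 7 were tested, 1 rose and 5 fell, and the sum went from 133 to 138 CPM down to 85.4 to 92.7 CPM, with Tpbpa at 0 in all libraries and Elf5 at no more than 0.123 CPM. Of 10 mesoderm markers 6 were tested, 2 rose and 1 fell (59.6 to 66.8 CPM against 72.1 to 73.5 CPM), and none was at 0 in all libraries. Of 10 germ cell markers 8 were tested, 4 rose and 1 fell (419 to 445 CPM against 719 to 780 CPM), and none was at 0 in all libraries. Most of the higher germ cell sum came from Stra8, a gene known to respond to retinoic acid, at 264 ± 11.8 and 562 ± 20.4 CPM, while Ddx4, Dazl and Piwil2 did not pass. Of the tested markers 88.9% were called for stem cells, 71.4% for neural progenitors and 83.3% for endoderm. For trophoblast, mesoderm and germ cells the shares were 85.7%, 50% and 62.5%, beside 68.6% of all genes tested. The part of these cell types in the changes of the 10 factors was not tested.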

How the data were processed

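For each of the 6 libraries the authors deposited raw counts of reads by Ensembl gene identifier, with no normalisation. HISAT2 2.1.0, HTSeq 0.9.1, DESeq2 1.18.1 and the mm10 build are named in the submitters' processing notes. Neither the annotation release nor the strand setting is given in the sources used here. The 5 HTSeq tallies closing each table were left out: 42.3 to 43.5% of reads were in no feature, and 36.0 to 38.4% were assigned to genes.

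Symbols, positions and exon lengths came from GENCODE M21 (GRCm38, the same build as mm10), which matched 52489 of 52636 identifiers. The test was that of edgeR 4.0.16 (R 4.3.3): filterByExpr with a minimum count of 10, TMM, quasi-likelihood F tests, Benjamini-Hochberg adjustment over 15816 genes, threshold 0.05, two-sided, no covariate. CPM are TMM-scaled, and each SE is the log2 fold change over the square root of F. The procedure was also run on simulated data in which few genes changed, whereas 68.6% of genes were called here. That run cannot show how the procedure behaves when most genes change. The series' design text calls the replicates biological. No replicate pair agreed within sampling noise (chi-square per degree of freedom 1.88 to 6.6). The pairs with knockout replicate 1 gave 5.54 and 6.6, and all others 1.88 to 2.34.

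The members and lists were chosen with earlier results of these data known. All 10 members are named, and from each other list up to 4 called genes with the lowest adjusted p. Further list genes were named for their roles or direction after their values were seen. A gene that this rule takes is not reported here. Patterns were compared on log2 of CPM plus a pseudocount of 0.5. Alternatives were RLE and upper-quartile scaling, DESeq2 1.42.0, limma-voom 3.58.1, other filters, a replicate block, left-out gene sets and each library left out.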

Additional observations from a re-analysis of the deposited data

How the results depend on the processing

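Among the 10 factors, 9 kept their direction and their call under all 14 alternatives run for them. Pou5f1 kept its direction but lost its call in 6 of 15: with DESeq2 (log2 fold change 0.11), with Gm19553 added (0.09), and with each of 4 libraries left out, where it ranged from 0.09 to 0.18 over all 6 left out in turn. Leaving out libraries gave 3 to 4 rises and 6 falls among the factors. The list medians then ranged from -0.30 to -0.23 for network regulators, -0.41 to -0.29 for downstream genes, 0.11 to 0.17 for LIF and STAT3, -1.54 to -1.46 for ERK, -2.44 to -2.23 for beta-catenin, -1.17 to -1.01 for epiblast, 0.21 to 0.31 for KLF and SP and -0.39 to -0.09 for POU and SOXB genes. This gave 0 to 1 epiblast rises and 2 to 4 POU and SOXB falls. The KLF and SP median was 0.27 with upper-quartile scaling and 0.09 with Sp5 and Sp8 in the list, the POU and SOXB median -0.28 with limma-voom, and DESeq2 gave 0 epiblast rises. The causes were not tested.

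By the longest transcript in place of all exons, levels in wild type and knockout were 135 and 147 CPM per kilobase for Pou5f1, 27.8 and 37.2 for Klf5 and 25.9 and 11.4 for Esrrb. Parts of the order then changed. In wild type Klf5 (27.3 to 28.5) stood above Esrrb (24.2 to 27.2), and both stood above Klf4 (16.8 to 18.1). In the knockout Klf5 (35.6 to 39.6) no longer overlapped Zfp42 (20.3 to 24.9). The KLF shares became 18.9 and 7.0% for Klf2, 31.2 and 33.8% for Klf4 and 49.9 and 59.2% for Klf5. The replicate block, for numbers that the labels do not say are paired (correlation of deviations 0.00226 to 0.0524 for same-numbered libraries), left all 10 factors called, with Pou5f1 at 0.12 (edgeR adjusted p = 0.00932). Among the 10 factors Nr0b1 had the fewest counts, 13 to 21 per knockout library.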
